A study of Mus musculus with 6 samples.

Results

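The Notch receptors and ligands were followed in inguinal white adipose tissue of mice that overexpress Slc35d3 in adipocytes. Of the 34745 genes in the count tables, 8 were members by their gene name: the 4 receptors Notch1, Notch2, Notch3 and Notch4, and the 4 ligands Jag1, Jag2, Dll1 and Dll4. The rule uses the name alone and no measured value, although this gene family was picked with earlier results of these data known. All 8 passed the filter on low counts that left 15400 genes for testing.

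Poly(A) RNA was sequenced from whole tissue of 3 control mice (WT) and 3 knock-in mice (SAKI), 1 library per mouse. SAKI mice carried a Slc35d3 transgene behind a loxP-flanked stop cassette together with Cre driven by the adiponectin promoter, which is active in mature adipocytes. Per the study's methods the controls also carried the Slc35d3 transgene but no Cre, while the labels call them wild type. All were males on a C57BL/6 background, put at 6 weeks of age on normal chow holding 10 kcal% fat, kept on it for 10 weeks and sampled at 16 weeks. The study's methods name a later starting age for mice divided between chow and high-fat diet. The labels also name PBS perfusion. The study asked whether SLC35D3, a membrane protein, acts on Notch signalling in this depot, and RNA levels of the receptors and ligands address the transcript side of that question.

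Notch receptors are single-pass membrane proteins that are activated by ligands on a neighbouring cell. Ligand pulling exposes the receptor to ADAM proteases and then to gamma-secretase, which frees the intracellular domain to enter the nucleus, bind RBPJ and switch on genes of the Hes and Hey families. The pathway is best known for cell fate choices and for arterial and capillary identity, where Notch1, Notch4, Dll4, Jag1 and Jag2 act in endothelium and Notch3 in smooth muscle and pericytes, and in fat it is known to restrain beige adipocyte formation.

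The 250 bases upstream of the RefSeq start (GRCm38.p6) of 4 members are shown to place the genes whose values are described here: Notch2, which lay higher in SAKI; Dll4, which had the largest difference in the other direction; and Notch1 and Notch4, of which Notch4 had the fewest CpG dinucleotides. They run 5′ to 3′ on the gene's own strand, and capitals mark each CpG.
Notch1, chr2:26503823-26504072, minus strand: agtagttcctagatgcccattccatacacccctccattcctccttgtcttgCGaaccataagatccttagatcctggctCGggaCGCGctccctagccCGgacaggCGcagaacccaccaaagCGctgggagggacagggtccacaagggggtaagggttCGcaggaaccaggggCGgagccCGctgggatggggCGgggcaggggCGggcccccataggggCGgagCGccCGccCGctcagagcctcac
Notch2, chr3:98013288-98013537, plus strand: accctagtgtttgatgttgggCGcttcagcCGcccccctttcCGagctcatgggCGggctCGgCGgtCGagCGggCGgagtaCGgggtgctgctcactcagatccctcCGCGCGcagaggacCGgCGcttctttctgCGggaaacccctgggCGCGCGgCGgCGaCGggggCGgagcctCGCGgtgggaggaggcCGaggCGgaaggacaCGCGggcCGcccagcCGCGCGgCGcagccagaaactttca
Notch4, chr17:34564045-34564294, plus strand: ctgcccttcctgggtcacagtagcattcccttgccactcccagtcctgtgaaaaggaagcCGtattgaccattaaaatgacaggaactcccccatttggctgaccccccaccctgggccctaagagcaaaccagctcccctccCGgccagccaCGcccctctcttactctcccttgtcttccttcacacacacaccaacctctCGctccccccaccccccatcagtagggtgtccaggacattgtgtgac
Dll4, chr2:119325534-119325783, plus strand: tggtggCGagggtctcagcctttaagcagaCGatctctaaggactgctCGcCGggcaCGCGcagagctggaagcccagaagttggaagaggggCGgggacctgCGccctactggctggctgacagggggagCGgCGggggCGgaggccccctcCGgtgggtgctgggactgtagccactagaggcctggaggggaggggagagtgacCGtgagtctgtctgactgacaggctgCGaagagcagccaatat
CpG counts in these stretches were 16 for Notch1, 34 for Notch2, 4 for Notch4 and 14 for Dll4, against a median of 6 over 32850 upstream stretches of the same length. Jag2 had the most of all members, 54, and Notch3, Jag1 and the 2 Dll1 starts had 17, 20, 21 and 13. A RefSeq start need not be the outermost start of a gene. GENCODE counts as exon all 250 bases of the Jag2 stretch, 124 of the Jag1 stretch and 153 at the Dll1 start with 21 CpG. For Notch1, Notch2, Notch4 and Dll4 these bases were 2, 11, 27 and 0, but the Notch1 stretch lay inside the gene's deposited span. The letters TGGGAA, the core of the RBPJ site, were searched on both strands of the window from 250 bases before to 50 bases after each start. None of the 9 member windows held them, while 25.6% of the 32850 windows did, which says only that these letters are not in these windows.

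Slc35d3 itself, the gene that was knocked in, was at 73.3, 82.1 and 74.4 CPM in WT mice 1 to 3 and at 745, 793 and 770 CPM in SAKI mice 1 to 3. CPM is the count relative to library size, with libraries put on one scale by the TMM method. The log2 fold change, always SAKI over WT, was 3.33 (SE 0.12, adjusted p = 0.000244 by edgeR's quasi-likelihood test with Benjamini-Hochberg adjustment), a 10.1-fold difference. Libraries held 15354161 to 18787036 counts. On the first principal component, which carried 47.3% of the variance, WT 2 stood at 26.2, beside the SAKI libraries at 21.0 to 29.2 and away from WT 1 and WT 3 at -42.0 and -60.2. The members' fits are therefore given with and without it. WT 2 was singled out after seeing that it resembled SAKI, so leaving it out can by itself widen the difference between the groups. Mitochondrial genes held 7.31% to 13.8% of the counts in WT, with WT 2 highest, and 13.1% to 15.9% in SAKI, and the part of this in the members' values was not tested.

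Across all genes tested, 0.0325% (5 genes) passed an adjusted p of 0.05, and none of the 8 Notch genes did. Their adjusted p in edgeR ran from 0.172 to 0.275. Of the 8, 7 had a log2 fold change below 0 and 1, Notch2, above 0, where 50.4% of all genes tested were below 0. The members' median log2 fold change was -0.46 and that of all genes -0.0035. Without adjustment, 6 members lay lower and 1 lay higher in SAKI at p under 0.05, beside backgrounds of 9.99% lower and 8.36% higher. In 6 members every SAKI library lay below every WT library and in 1 every SAKI library lay above, while such a separation was found downward in 12.4% and upward in 13.0% of all genes. With 3 mice against 3, the exact two-sided permutation test cannot go below p = 0.1, which every member but Notch4 reached.

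**Figure D1:**
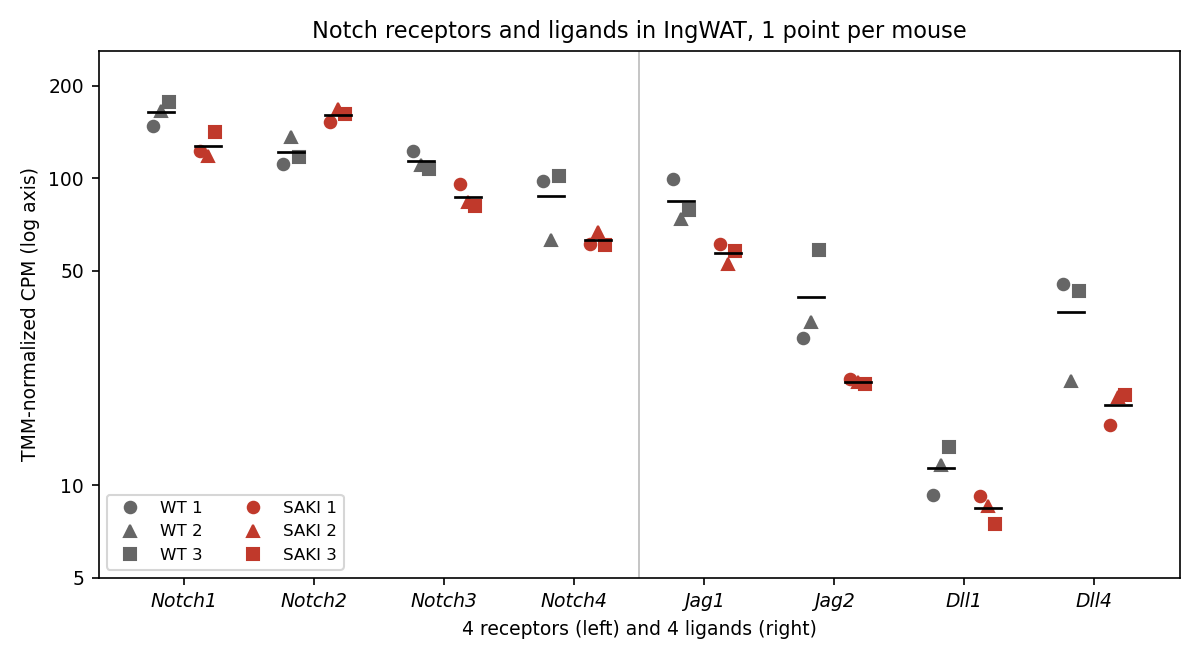
TMM-normalized CPM of each Notch receptor and ligand in the 6 libraries, on a log axis. Points are mice, with a shape for each replicate number, and the short lines are the means of the 3 mice of a group; SAKI lies above WT for Notch2, below it for the others, and the groups overlap for Notch4.

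Among the receptors, Notch2 differed from the other three in direction. Notch1 (chr2:26457903-26516663, minus strand; 34 exons in its longest coding transcript), the receptor most studied in endothelium and lymphocytes, was at 148, 166 and 178 CPM in WT mice 1 to 3 and at 123, 118 and 141 CPM in SAKI mice 1 to 3. All SAKI values lay below all WT values, but the lowest WT mouse was only 4.94% above the highest SAKI mouse. The log2 fold change was -0.36 (SE 0.12, 95% interval -0.65 to -0.08; edgeR adjusted p = 0.213). Notch3 (chr17:32120820-32166880, minus strand; 33 exons), the receptor of vascular smooth muscle and pericytes, was at 123, 111 and 107 CPM in WT and at 95.5, 83.5 and 81.3 CPM in SAKI. The groups did not overlap, with a log2 fold change of -0.39 (SE 0.11, -0.65 to -0.13; edgeR adjusted p = 0.188).

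Notch2 (chr3:98013527-98150361, plus strand; 34 exons), a receptor widely expressed outside the endothelium, was at 111, 136 and 117 CPM in WT and at 152, 168 and 162 CPM in SAKI. The lowest SAKI mouse lay 11.9% above the highest WT mouse, and the log2 fold change was 0.41 (SE 0.12, 0.13 to 0.68; edgeR adjusted p = 0.188). Notch4 (chr17:34564268-34588503, plus strand; 30 exons), a receptor largely restricted to endothelium, was at 97.7, 62.7 and 101 CPM in WT and at 61.2, 66.7 and 60.5 CPM in SAKI. WT 2 sat within the SAKI range and the other WT mice well above it, so the groups overlapped. The log2 fold change of Notch4 was -0.47 (SE 0.19, -0.92 to -0.03; edgeR adjusted p = 0.255, exact permutation p = 0.2).

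The 4 ligands all had lower means in SAKI, and Jag1, Jag2 and Dll4 held the largest differences of the family. Jag1 (chr2:137081456-137116644, minus strand; 26 exons), a ligand of endothelium and smooth muscle, was at 99.5, 73.9 and 79.0 CPM in WT and at 61.1, 52.5 and 58.2 CPM in SAKI. The groups were separated, with a log2 fold change of -0.56 (SE 0.14, -0.88 to -0.23; edgeR adjusted p = 0.172), the smallest of the 8 adjusted p. Jag2 (chr12:112908590-112929495, minus strand; 26 exons), its closest relative, was at 30.2, 34.0 and 58.5 CPM in WT and at 22.2, 21.7 and 21.4 CPM in SAKI. The SAKI mice were nearly equal while WT 3 stood well above the other WT mice, and the log2 fold change was -0.91 (SE 0.25, -1.50 to -0.32; edgeR adjusted p = 0.181).

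Dll4 (chr2:119325784-119335962, plus strand; 11 exons), the ligand of arterial and sprouting endothelium, was at 45.2, 21.9 and 42.9 CPM in WT and at 15.8, 19.3 and 19.6 CPM in SAKI. WT 2 was close to the SAKI mice, as for Notch4, but stayed above them. SAKI tissue held 0.498 times the WT level of Dll4 in this fit (log2 fold change -1.01, SE 0.27, -1.65 to -0.36; edgeR adjusted p = 0.181). Dll1 (chr17:15367354-15376872, minus strand; 11 exons), a ligand known from somites and lymphoid niches, was the lowest member, at 9.33, 11.6 and 13.3 CPM in WT and at 9.26, 8.54 and 7.50 CPM in SAKI. The lowest WT mouse was 0.763% above the highest SAKI mouse, and with 132 to 203 reads per library the counting error alone was up to 8.70%. Its log2 fold change was -0.44 (SE 0.19; edgeR adjusted p = 0.275), with a 95% interval that included 0. Genes without a known protein that overlap exons of members, some on the opposite strand, had 0 to 25 counts per library.

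Left without WT 2, the same edgeR test called 16.6% of 15693 genes and 5 of the 8 members. These were Notch2 (log2 fold change 0.50, adjusted p = 0.0218 in edgeR), Notch4 (-0.66, 0.0103), Jag1 (-0.64, 0.0255), Jag2 (-1.03, 0.0450) and Dll4 (-1.27, 0.00461). Notch1 (-0.35, 0.108), Notch3 (-0.40, 0.0581) and Dll1 (-0.42, 0.197) did not pass. With any other single library left out, 1 to 4 genes and 0 members were called. DESeq2 on all 6 libraries called 4.73% of genes and 3 members, Jag1, Jag2 and Dll4, at adjusted p of 0.0232, 0.0248 and 0.0192. All 8 members kept their direction in each of 16 other settings, among them other scalings between libraries, while relating them to the markers of smooth muscle and pericytes turned 3 of them, though not once SAKI 3 was left out.

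**Figure D2:**
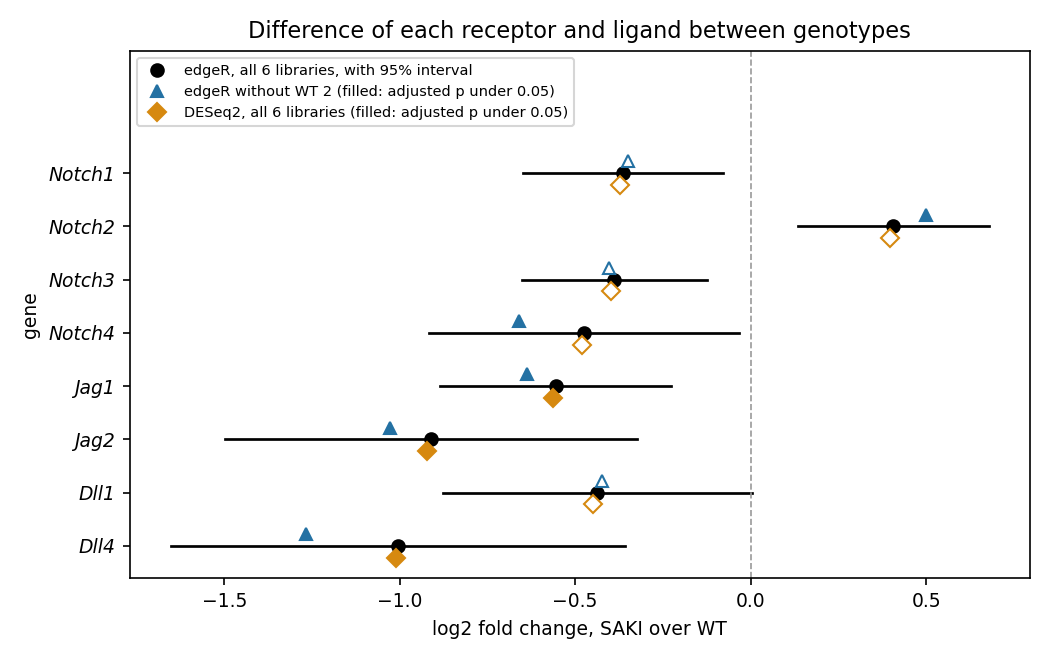
Log2 fold change (SAKI over WT) of the 8 members from edgeR, as points with 95% intervals for all 6 libraries, beside the values without WT 2 and from DESeq2, filled where the adjusted p was under 0.05. WT 2 was singled out because it lay with the SAKI libraries on the first principal component. With all 6 libraries in edgeR, Notch2 lies at 0.41 and the other members between -1.01 and -0.36.

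Summed over each role and scaled for gene length and library size (FPKM), the receptors were at 44.6, 40.4 and 41.4 in WT and at 37.6, 38.6 and 39.6 in SAKI. The ligands were at 36.8, 26.0 and 37.4 FPKM in WT and at 19.7, 19.5 and 20.6 FPKM in SAKI. Neither sum overlapped between the groups (exact permutation p = 0.1 for each, the smallest possible). Mean sums in WT and SAKI were 42.1 ± 2.19 and 38.6 ± 0.984 FPKM for the receptors and 33.4 ± 6.45 and 20.0 ± 0.604 FPKM for the ligands (SD, n = 3).

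Notch2 took a larger share of the receptor FPKM in each SAKI mouse than in any WT mouse. It held 23.3%, 29.2% and 24.1% of the receptor FPKM in WT mice 1 to 3 and 35.5%, 39.1% and 37.7% in SAKI mice 1 to 3. The means differed by 11.9 percentage points without overlap (exact permutation p = 0.1, adjusted over the 8 shares 0.4). Mean shares of the other receptors in WT and SAKI were 24.4% and 21.0% for Notch1, 33.3% and 28.1% for Notch3, and 16.8% and 13.4% for Notch4. Jag1 held 37.2 ± 6.64% of the ligand FPKM in WT and 42.4 ± 2.55% in SAKI, Jag2 29.8 ± 7.92% and 27.1 ± 0.708%, Dll4 27.2 ± 5.98% and 23.5 ± 2.95%, and Dll1 5.73 ± 1.40% and 7.04 ± 0.765% (SD, n = 3). Exact permutation p for these other shares ran from 0.2 to 0.7, in a design whose smallest possible p is 0.1. The groups overlapped in each of them.

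**Figure D3:**
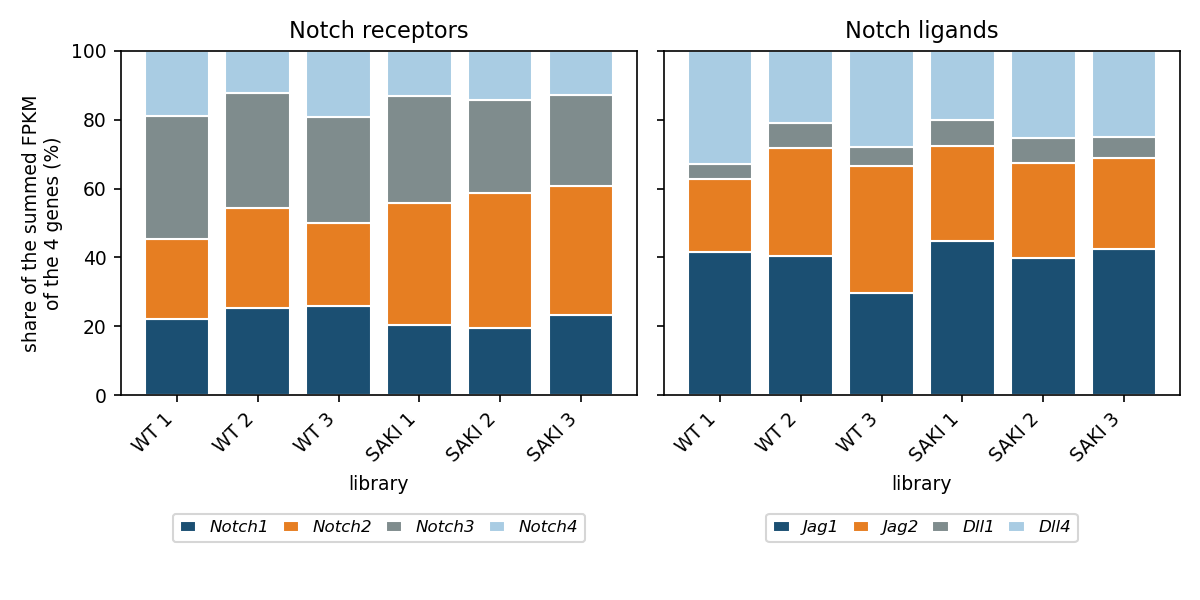
Percent of the summed FPKM of the 4 receptors (left) and the 4 ligands (right) held by each gene, stacked for each of the 6 libraries. Notch2 takes 23.3% to 29.2% of the receptors in WT and 35.5% to 39.1% in SAKI.

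By FPKM in WT, Notch3 had the highest mean (14.0), followed by Jag1 (12.3), Notch2 (10.7), Notch1 (10.2), Jag2 (9.92), Dll4 (9.33), Notch4 (7.12) and Dll1 (1.86). Each neighbouring pair in that order overlapped over the 3 mice except Notch4 and Dll1. In SAKI the order was Notch2 (14.5), Notch3 (10.8), Jag1 (8.46), Notch1 (8.12), Jag2 (5.40), Notch4 (5.19), Dll4 (4.70) and Dll1 (1.40). There, Notch2 and Notch3, Notch3 and Jag1, Notch1 and Jag2, and Dll4 and Dll1 did not overlap, while the other neighbours did. With the deposited gene lengths, Notch2 was at 1.06, 1.16 and 0.930 times the FPKM of Notch1 in WT mice 1 to 3 and at 1.75, 2.00 and 1.63 times in SAKI. Over all libraries Notch2 lay above 79.5% of the genes tested by mean FPKM and Dll1 above 28.6%.

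The other genes of the pathway were read from a list of 51, of which 46 were tested, written with earlier results of these data known. None passed the adjusted p in edgeR, and 8 had an unadjusted p under 0.05, of which 6 lay below 0, beside 18.4% of all genes tested at that p in either direction. The median log2 fold change was -0.03. The Notch target genes stood lowest: all 6 that could be tested of 8 were below 0, 3 of them at an unadjusted p under 0.05, with a median of -0.75. Hes1, a repressor and the classic Notch target, was at 15.3, 13.9 and 19.2 CPM in WT and at 7.95, 9.38 and 7.39 CPM in SAKI (log2 fold change -0.97, SE 0.18; edgeR adjusted p = 0.148). Nrarp, a feedback inhibitor of Notch signalling, was at 26.1, 16.0 and 31.7 CPM in WT and at 10.9, 11.6 and 11.7 CPM in SAKI (-1.11, SE 0.25; edgeR adjusted p = 0.163). The groups did not overlap in either gene, and WT 2 was lowest of the WT mice in both, as in Dll4 and Notch4.

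DESeq2 called 4 of the 46 tested genes of the list, all lower, beside 4.73% of all genes tested. They were Hes1 (DESeq2 adjusted p = 0.00151), Nrarp (0.00436), Furin (0.00480) and Hey1 (0.0125), another target, while limma-voom called 0. Left without WT 2, edgeR called 10 of the 46, 6 lower and 4 higher, beside the background of 16.6%. Among the lower ones were Hes1, Hey1, Nrarp, Furin and Dtx2, and the higher ones were Rbpj, Maml2, Ncor1 and Aph1b. Rbpj, the DNA-binding partner of the receptors' intracellular domains, was at a log2 fold change of 0.53 there (edgeR adjusted p = 0.0305).

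Genes of the nuclear complex lay mostly the other way, with 8 of 10 above 0 and a median of 0.17. Maml2, a coactivator of the Notch complex, was at 26.2 ± 4.85 CPM in WT and 36.6 ± 1.43 CPM in SAKI (log2 fold change 0.48, edgeR adjusted p = 0.200; SD, n = 3). Of the 10 genes of receptor cleavage, 5 were below 0 and 5 above. Furin, which makes the first cut in the maturing receptor, was at 114 ± 15.8 CPM in WT and 74.5 ± 4.20 CPM in SAKI (-0.61, edgeR adjusted p = 0.155), and Aph1c, a gamma-secretase subunit, at 3.33 ± 1.36 and 5.29 ± 0.825 CPM (0.67, 0.348).

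Of the 8 genes that glycosylate the receptors, 6 were below 0 with a median of -0.15. The Fringe enzymes Mfng and Rfng, which add sugars that tune ligand choice, had log2 fold changes of -0.27 and -0.39 (edgeR adjusted p = 0.268 and 0.398). Of the 11 genes of ligand and receptor turnover, 6 were below 0 with a median of -0.03. Neurl1b, a ubiquitin ligase that acts on ligands, and Numbl, a relative of the receptor inhibitor Numb, had log2 fold changes of -0.52 and -0.30 (edgeR adjusted p = 0.275 and 0.337). Of 4 atypical ligands only Dlk1, a soluble inhibitor of adipocyte differentiation, could be tested, at 1.98 and 1.5 CPM (-0.38, edgeR adjusted p = 0.686).

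Whole tissue mixes cell types, so fewer cells of a type and less RNA per cell cannot be told apart, and the levels of cell type markers are given beside the members. Each list's level is its mean log2 CPM over its genes that were tested. Endothelial markers, which include Pecam1 and Cdh5, had 9 of 12 genes below 0 and a mean of 6.94 ± 0.06 in WT against 6.76 ± 0.06 in SAKI, without overlap, and summed to 1857 to 2046 CPM in WT and 1648 to 1771 CPM in SAKI. Their fitted log2 fold changes were uneven, from -1.27 for Cldn5 to 0.40 for Tek, with Pecam1 at -0.05 and Cdh5 at -0.19. Arterial markers had 5 of 6 below 0 (mean difference -0.23, no overlap; -0.14 without SAKI 3). Smooth muscle and pericyte markers had 10 of 11 below 0, and a mean difference of -0.43 without overlap, which was -0.25 without SAKI 3. Their fitted log2 fold changes ran from -0.84 for Acta2 to 0.12 for Abcc9, and the defining genes Myh11 (-0.05) and Rgs5 (-0.03) were near 0. Each gene weighs equally in a list, and Cnn1 was at only 0.41 CPM in SAKI 3, against 2.5 to 6.1 CPM in the other libraries. All 12 markers of mature adipocytes were below 0, with a mean difference of -0.42 and no overlap. The defining genes of these lists were present: Pecam1 at 276 to 325 CPM, Rgs5 at 348 to 436 CPM and Adipoq at 1168 to 2006 CPM over the 6 libraries.

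In the other direction, all 8 markers of macrophages (mean difference 0.94), all 8 of T and NK cells (0.67) and all 8 of B cells (0.27) were above 0. The B cell difference was 0.02 without WT 2 and 0.45 without WT 1. Only the T and NK cell list did not overlap between groups, summing to 216 to 329 CPM in WT and 397 to 455 CPM in SAKI. Lymphatic endothelium (0.54, or 0.33 without WT 3) and fibroblasts and progenitors (0.49, or 0.84 without WT 2 and 0.25 without WT 3) overlapped. The 3 lymph node stroma markers that could be tested of 5 were above 0, and their mean did not overlap (0.87). They were uneven, with Cxcl13 at 0.11, Madcam1 at 0.84 on only 0.97 to 2.61 CPM, and Glycam1 at 1.59. Ccl19 and Ccl21a, which define that stroma, were listed at 0 in every library. Schwann cell markers did not overlap (0.26), and those of skeletal muscle (0.10) and of epithelium (0.10, although its 3 tested genes of 7 each had a fitted log2 fold change below 0) did. Exact permutation p adjusted over the 13 lists was 0.186 for every list without overlap and 0.289 to 0.900 for the rest. The part of these cell types in the members' values was not tested.

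Set against the mean of the endothelial markers in the same library, the log2 difference between SAKI and WT was 0.59 for Notch2, -0.36 for Jag1 and -0.66 for Jag2, each without overlap. Notch1 (-0.18), Notch3 (-0.21), Notch4 (-0.26), Dll1 (-0.24) and Dll4 (-0.76) overlapped on that scale. Against the arterial markers, only Notch2 (0.64) and Jag2 (-0.62) were without overlap, and Jag1 (-0.32) overlapped. The members were not set against the mature adipocyte markers, whose mean difference was -0.42. Set against the smooth muscle and pericyte markers, only Notch2 stayed without overlap, at 0.84. On that scale Jag1 was at -0.11, Jag2 at -0.41, Dll4 at -0.51 and Notch4 at -0.01, while Notch1, Notch3 and Dll1 were at 0.07, 0.04 and 0.01, all with overlapping groups. These 3 turns rested on SAKI 3, in which the marker list was lowest. Without SAKI 3 Notch1 was at -0.19, Notch3 at -0.10 and Dll1 at -0.10, and Notch2 was still above 0, at 0.65. Without WT 1, too, Notch1 (-0.06) and Dll1 (-0.19) lay below 0 on that scale.

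The pattern over the 6 libraries was compared between each member and 144 tested genes of the pathway and marker lists, by the root mean square difference of centred log2 CPM. This is a description, and the libraries are shared by every pair. Nearest to Notch2 were Maml2 (0.0947) and Ep300 (0.0998), both coactivators of the Notch complex. Dll4 was nearest to Nrarp (0.144) and Hey1 (0.218), both Notch targets, and Notch4 lay beside the endothelial adhesion gene Esam (0.117). Notch3 lay beside Kcnj8 (0.0805), a pericyte channel, and Eng (0.0872), an endothelial receptor, and Jag1 beside Pdgfrb (0.0841), a pericyte receptor, and Dpt (0.135), a fibroblast matrix gene.

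Mature adipocyte markers were nearest to the remaining members. Notch1 paired with Slc2a4 (0.106), the insulin-responsive glucose transporter, and Cidec (0.108), a lipid droplet protein. Jag2 paired with Dgat2 (0.0987), an enzyme of triglyceride synthesis, and Retn (0.129), which encodes resistin, and Dll1 with Fabp4 (0.0945), a fatty acid carrier, and Lipe (0.0978), hormone-sensitive lipase. Among the members themselves, Notch3 and Jag1 were nearest (0.127) and Notch2 and Dll4 farthest apart (0.799).

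**Figure D4:**
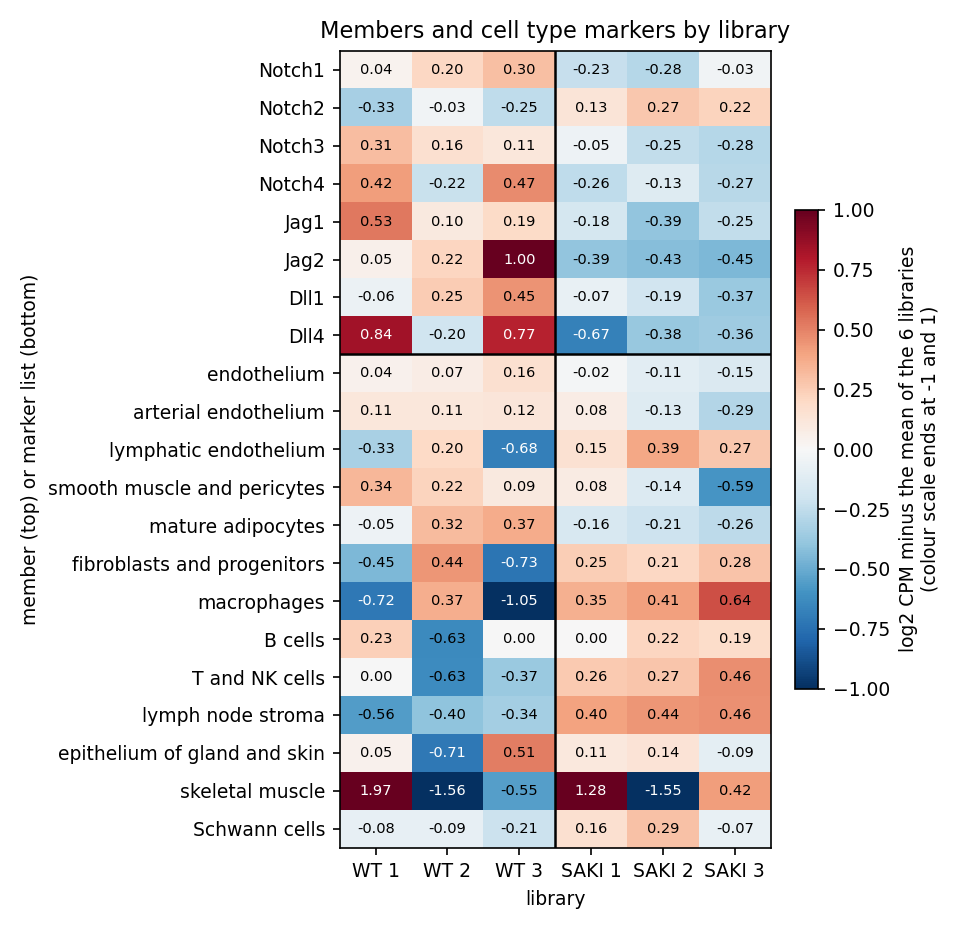
Log2 CPM of the 8 members and mean log2 CPM of the marker lists in each of the 6 libraries, centred on the mean of all 6 and shown as colour with the value in each cell. Dll4 is at 0.84, -0.20 and 0.77 in WT and at -0.67, -0.38 and -0.36 in SAKI, and Notch2 is above 0 in the SAKI libraries alone.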

How the data were processed

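RNA-seq of inguinal fat from 3 WT and 3 SAKI mice was analysed from the deposited tables, 1 per mouse. The authors gave raw counts per gene and FPKM, which equal the counts divided by gene length and library total. The submitters' processing notes list StringTie 1.3.0, HISAT2 2.0.4 and Bowtie2 2.2.6 with the build GRCm38 and give no role to any; the counting tool, its annotation release and its use of strand were not given in the sources used here. Gene positions are as deposited, exon numbers are from GENCODE (GRCm38) and upstream sequences from RefSeq (GRCm38.p6).

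Counts were filtered (filterByExpr, minimum count 10, minimum total 15), TMM-normalized and tested for genotype with edgeR 4.0.16 (quasi-likelihood, two-sided, Benjamini-Hochberg over 15400 genes, threshold 0.05) in R 4.3.3, a fit checked on simulated data. The common biological coefficient of variation was 23.3%. Log2 CPM used a prior count of 1. DESeq2 1.42.0, limma 3.58.1, other scalings, filters and FPKM pseudocounts of 1 and 0.1 were alternatives. Shares and marker lists were compared by exact permutation over libraries. Protein features that had been planned were not analysed here.

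Named were all members and Slc35d3, the 2 tested genes of smallest p per pathway role, the 2 listed genes nearest each member in pattern, and defining markers; some results that this rule would name are not reported here. The members and lists were chosen with earlier results of these data known. Libraries came from separate mice.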

Additional observations from a re-analysis of the deposited data

How the results depend on the processing

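The count of genes called, 5 in edgeR (3 higher, 2 lower), was 728 with DESeq2 (310 higher, 418 lower), 8 with no filter on low counts, and 9 on log2 FPKM with either pseudocount, 1 or 0.1. Leaving out 1 library gave 1 to 2598 genes: 2598 without WT 2 (1163 higher, 1435 lower), 4 without WT 1 or WT 3, 2 without SAKI 1 or SAKI 2 and 1 without SAKI 3. With the replicate number as a block 1 gene was called and no member. In deviations from their group means, same-numbered libraries correlated at 0.025, 0.032 and 0.095, and differently numbered ones at -0.204 to 0.165. With 3 libraries per group, this check cannot show whether the numbers pair the mice. The number of members called, 0, became 3 with DESeq2 and 0 to 5 when 1 library was left out. The members called with DESeq2 were Jag1 (log2 fold change -0.56), Jag2 (-0.92) and Dll4 (-1.01). Leaving out 1 library gave log2 fold changes of -0.44 to -0.30 for Notch1, 0.34 to 0.50 for Notch2, -0.48 to -0.33 for Notch3, -0.66 to -0.35 for Notch4, -0.64 to -0.42 for Jag1, -1.09 to -0.56 for Jag2, -0.57 to -0.31 for Dll1 and -1.27 to -0.83 for Dll4. Over 16 settings per member, all 128 values kept their direction. Scaled to smooth muscle and pericyte markers, an alternative chosen after seeing the data, Notch1 (0.0698), Notch3 (0.0435) and Dll1 (0.00876) turned; with 1 library left out they ran from -0.19 to 0.24, from -0.10 to 0.12 and from -0.19 to 0.19, all below 0 without SAKI 3, and Notch4 from -0.23 to 0.18. The Jag2 share difference ran from -7.03 to 0.782 points when 1 library was left out and turned without WT 3. With 1 library left out, the B cell list ran from 0.0197 to 0.454, the smooth muscle and pericyte list from -0.581 to -0.246, the arterial list from -0.327 to -0.141, the lymphatic list from 0.333 to 0.772 and the fibroblast list from 0.250 to 0.836. The epithelial list ran from -0.228 to 0.384, turning without WT 2. The skeletal muscle list ran from -0.663 to 1.10 and turned to -0.66, -0.16, -0.52 and -0.09 without WT 2, WT 3, SAKI 1 and SAKI 3. The causes were not tested. Depth limits Dll1 most, at 132 to 203 reads per library, and counting error does not cover the spread between mice.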

Other observations

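The order of levels between the members depends on the gene length used, as do the role sums, shares and ratio of Notch2 to Notch1. The deposited lengths were 1.85 times the longest coding transcript of GENCODE for Notch4, 1.69 times for Dll1, 1.67 times for Notch1 and 0.794 times for Jag2. With the longest coding transcript as length, an alternative chosen after seeing the data, Notch1 came first in WT (17.1 on the FPKM scale), before Jag1 (14.9), Notch3 (14.1), Notch4 (13.2), Notch2 (11.4), Dll4 (9.75), Jag2 (7.88) and Dll1 (3.14). In SAKI, Notch2 (15.4) stayed first, before Notch1 (13.5), Notch3 (10.9), Jag1 (10.3), Notch4 (9.60), Dll4 (4.91), Jag2 (4.29) and Dll1 (2.37). Log2 fold changes do not use these lengths.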
